A study of Mus musculus with 9 samples.

Results

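Peaks of the nucleolar factor UBTF whose summits lay on microsatellites other than the adenine-guanine (AG) dinucleotide and the telomere hexamer were examined in 6 ChIP-seq libraries of mouse pre-B cells. A peak was a member when it was among the best 20000 of its list by the peak caller's score, lay outside the ribosomal RNA genes (rDNA), and had within 100 bp on either side of its summit an uninterrupted tandem repeat of at least 40 bp with a unit of 1 to 6 bp that was neither of the excluded repeats on either strand. The rule found 14856 members among the 120000 best peaks of the 6 lists: 3852 and 4188 in wild type replicates 1 and 2, 3912 and 672 in premalignant replicates 1 and 2, and 1288 and 944 in malignant replicates 1 and 2. They rested on 9116 distinct repeat arrays, since neighbouring summits and different lists can hold the same array. Because scores and sequence chose the members, their number and their repeats are given as a description and not as a test.

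Microsatellites are runs of a short unit repeated head to tail, which change length by slippage of the copying polymerase and are found mostly between genes and in introns. UBTF is an architectural protein with several HMG boxes, a DNA-bending fold with little preference for base sequence, and is known for coating active rDNA and preparing it for RNA polymerase I. Reads from microsatellites are hard to place, because many loci carry nearly the same letters.

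Wild type cells came from C57BL/6 mice without the transgene. Premalignant and malignant cells came from mice heterozygous on that background for Eµ-Myc, a transgene in which the immunoglobulin heavy chain enhancer drives MYC in the B lineage. Cells were sorted from bone marrow by flow cytometry, from wild type and premalignant animals aged 4 to 6 weeks and from malignant animals aged 10 to 20 weeks, when lymphoma had arisen. The labels give high B220, low IgM and low IgD for all stages, whereas the study's methods give that gate for wild type and premalignant cells and B220+ IgM- IgD- for malignant cells. Per the study's methods the wild type and premalignant animals were female littermates and the malignant animals were of both sexes, so age, sex and gate cannot be told apart from the malignant stage. Each stage had 2 UBTF libraries, from separate replicate experiments. The 3 input samples were not analysed here. Peak lists hold no expression values, so the cell type could not be checked against marker genes.

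The lists held 1796909 peaks in all. Their depth is unknown, and scores are not scaled between lists, so only ranks and positions were compared. The narrowest listed peak measured 240 to 260 bp for the wild type libraries and premalignant replicate 1 (here the narrow lists), but 670 to 800 bp for the malignant libraries and premalignant replicate 2 (the wide lists). The study made no such division. As every wild type list was narrow and every malignant list wide, list kind and stage cannot be told apart between them, and list kind moved with most of the results given here. Its part in them was not tested.

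The following mm9 sequences, read 5′ to 3′ on the plus strand of the NCBIM37 assembly, show the kinds of array the results turn on. Capitals mark the uninterrupted repeat, and 20 bp on each side are in lower case. The opening pair are the ACAG and AC arrays with the best mean ranks among arrays held by all 6 lists, the next is an AGAT array that runs straight into ACAG, then comes the best AGAGGC array, and the last 3 were each held by both lists of a single stage alone.
ACAG, intron of Gria1, chr11:56989583-56989708: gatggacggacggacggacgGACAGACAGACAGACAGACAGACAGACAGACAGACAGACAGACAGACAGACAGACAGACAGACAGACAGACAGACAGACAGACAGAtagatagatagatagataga
AC, intron of Gnb5, chr9:75160991-75161077: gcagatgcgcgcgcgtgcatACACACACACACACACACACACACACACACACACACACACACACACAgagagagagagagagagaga
AGAT, intergenic, chr8:77501591-77501700: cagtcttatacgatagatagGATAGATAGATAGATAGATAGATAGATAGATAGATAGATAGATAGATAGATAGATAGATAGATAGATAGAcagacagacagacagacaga
AGAGGC, intron of Cd163l1, chr7:147407125-147407233: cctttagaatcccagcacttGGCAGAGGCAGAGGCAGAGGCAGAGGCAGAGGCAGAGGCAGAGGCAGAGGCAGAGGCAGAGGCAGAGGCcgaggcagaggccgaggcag
AC, intergenic, wild type lists alone, chr8:41502015-41502094: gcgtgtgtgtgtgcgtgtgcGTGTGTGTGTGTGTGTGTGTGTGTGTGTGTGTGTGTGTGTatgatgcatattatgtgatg
AGGG, intron of Sult1c1, premalignant lists alone, chr17:54117512-54117610: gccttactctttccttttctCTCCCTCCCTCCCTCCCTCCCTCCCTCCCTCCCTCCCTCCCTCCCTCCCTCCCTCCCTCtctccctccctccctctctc
AGGC, intron of Eif2ak4, malignant lists alone, chr2:118252561-118252641: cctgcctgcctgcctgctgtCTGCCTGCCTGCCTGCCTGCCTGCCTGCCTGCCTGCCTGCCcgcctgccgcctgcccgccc

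Units are named by the alphabetically first rotation over both strands, so that AC stands for the CA/TG repeat and AGGG also for CCCT. In the examples the repeat is often not alone. The Gria1 array (86 bp) has AGAT and ATCC arrays of 54 and 42 bp within 200 bp, and the Gnb5 array (47 bp) has AG arrays of 42 and 62 bp beside it. AG and AGAT neighbours recur among the members as a whole, whereas ATCC neighbours were not counted.

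Members made up 19.26% and 20.94% of the best 20000 peaks in wild type replicates 1 and 2, 19.56% and 3.36% in premalignant replicates 1 and 2, and 6.44% and 4.72% in malignant replicates 1 and 2. Of 20000 random mm9 positions 378 held such a repeat (1.89%, 95% exact Clopper-Pearson interval 1.71 to 2.09, counting error only), and over all sequenced positions of mm9 the share was 1.83%. Every list was above that level, premalignant replicate 2 the least, and the 3 narrow lists lay above the 3 wide lists with no overlap.

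**Figure D1:**
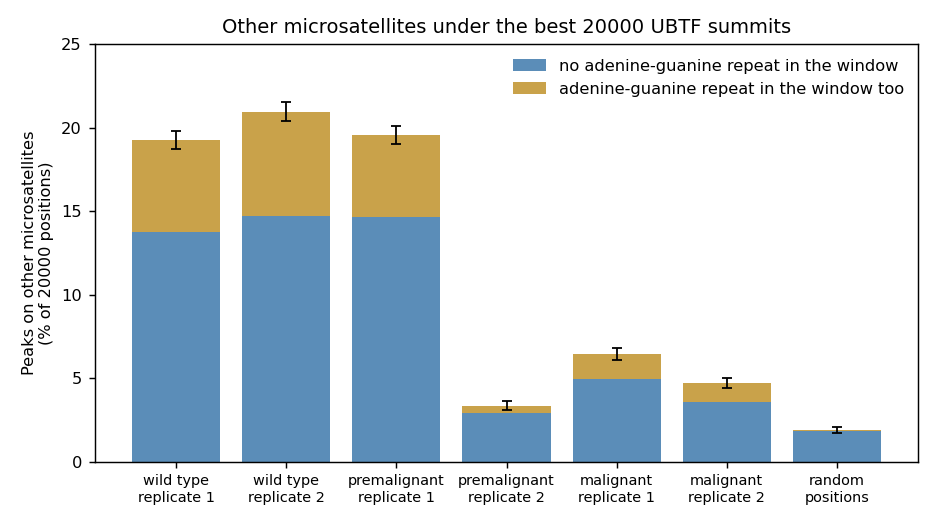
Percent of the best 20000 peaks outside rDNA in each library, and of 20000 random mm9 positions, with another microsatellite within 100 bp of the summit. Bars divide the members by whether the window also held an adenine-guanine repeat of 40 bp or more, and error bars are 95% exact binomial intervals of the total (counting error only). The 3 narrow lists stand between 19.26% and 20.94% and the 3 wide lists between 3.36% and 6.44%, against 1.89% at random.

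The fixed question was whether the share of members differed between stages. It was 20.1% ± 1.19 (SD, n = 2) in wild type, 11.5% ± 11.5 (n = 2) in premalignant and 5.58% ± 1.22 (n = 2) in malignant cells. The smallest p of an exact two-sided permutation of 2 libraries against 2 is 0.333, and the 3 comparisons could therefore make no call. The malignant mean lay 14.5 points below the wild type mean, with both malignant libraries below both wild type libraries (exact permutation p = 0.333, adjusted p = 1 over the 3 comparisons). The other differences were -8.64 points for premalignant minus wild type (exact permutation p = 0.667, adjusted p = 1) and -5.88 for malignant minus premalignant (exact permutation p = 1, adjusted p = 1). Among the narrow lists alone premalignant replicate 1 differed from the wild type mean by -0.54 points, and among the wide lists the malignant mean differed from premalignant replicate 2 by 2.22 points. The large premalignant SD is the gap between a narrow and a wide library. With premalignant replicate 1 left out the malignant mean was thus above the premalignant value, and the direction of that comparison rests on 1 library.

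Of the 288260 arrays of this kind in mm9, the best 20000 summits of a list held between 989 and 4785, where an array is held when at least 40 bp of it lie in a member's window. This was 1.51% and 1.66% of all arrays in wild type replicates 1 and 2, 1.51% and 0.343% in premalignant replicates 1 and 2, and 0.528% and 0.41% in malignant replicates 1 and 2. These shares are the background against which single units are read here.

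The commonest arrays of the genome were not those held most often. AC dinucleotide arrays are 36.5% of all arrays and made up 46.6%, 51.6%, 52.2%, 13%, 28.1% and 23.3% of the arrays held in wild type replicates 1 and 2, premalignant replicates 1 and 2 and malignant replicates 1 and 2. The same order of libraries is used for every run of 6 values from here on. AC was thus above its genome share in the narrow lists and below it in the wide ones. As a share of the 105325 AC arrays of mm9, those held were 1.93%, 2.35%, 2.16%, 0.122%, 0.406% and 0.262%.

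Units of 4 bp with an ACAG, ACGC or AGGC core were held far more often. ACAG arrays number 1124 in mm9 and were held at 25.6%, 26.3%, 22.9%, 12%, 15.5% and 9.79%, above the background of its list in each library. The 489 AGGC arrays were held at 15.5%, 15.1%, 16.4%, 7.36%, 11.5% and 15.1%. The highest wide list, malignant replicate 2, was level with the lowest narrow list, wild type replicate 2. ACGC, the commonest member unit that carries a CpG, has 181 arrays, held at 38.1%, 33.1%, 30.4%, 1.66%, 19.3% and 7.18%. For ACGC the spread between libraries was wide, and premalignant replicate 2 held 3 arrays in all.

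CpG is the dinucleotide at which mammalian DNA is methylated, and microsatellites with it are scarce. As a class, units with a CpG counted 677 arrays and were held at 12.3%, 11.4%, 9.9%, 1.62%, 6.35% and 2.95%. The 287583 arrays without CpG were held at 1.48%, 1.64%, 1.49%, 0.34%, 0.514% and 0.404%. The CpG class was higher in each of the 6 lists, but ACGC supplied most of it in 5 of them. The 496 CpG arrays of other units were held at 2.82%, 3.43%, 2.42%, 1.61%, 1.61% and 1.41%.

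By GC content the share of arrays held rose stepwise from AT-only units to GC-rich ones when averaged over the 6 libraries, at 0.0675% ± 0.0394 (SD, n = 6) for units without G or C, 0.538% ± 0.211 for those above 0 and below 50% GC, 1.29% ± 0.98 for those at 50% and 2.04% ± 1.06 for those above 50%. The SDs of neighbouring groups with G or C overlap. In single lists the end points kept that order, but in premalignant replicate 2 units at 50% GC (0.281%) lay below those of lower GC (0.458%). Trimers with G or C had the reverse order, with means of 0.411% ± 0.293 above 50% GC and 0.742% ± 0.389 below 50%. In wild type replicate 2 these trimers were nearly level (0.938% and 0.909%). For tetramers, pentamers and hexamers the means rose with GC. Arrays of A and T alone were nearly missing. Of 16463 AT dinucleotide arrays 14, 24, 19, 2, 4 and 1 were held, and of the 1687 AAAAT arrays no list held any. Nor did any list hold one of the 737 arrays of AAAC, a unit of 25% GC.

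Grouped by unit length, hexamers led with a mean of 2.74% ± 1.53 (SD, n = 6) of arrays held, followed by 1.05% ± 0.909 for dinucleotides, 0.833% ± 0.325 for tetramers, 0.728% ± 0.393 for pentamers, 0.542% ± 0.284 for trimers and 0.42% ± 0.224 for mononucleotides. The SDs of all neighbours in that order overlap. In premalignant replicate 2 (0.108%) and malignant replicate 2 (0.227%) dinucleotides were held least often of all unit lengths, while in the narrow lists they came after hexamers alone.

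**Figure D2:**
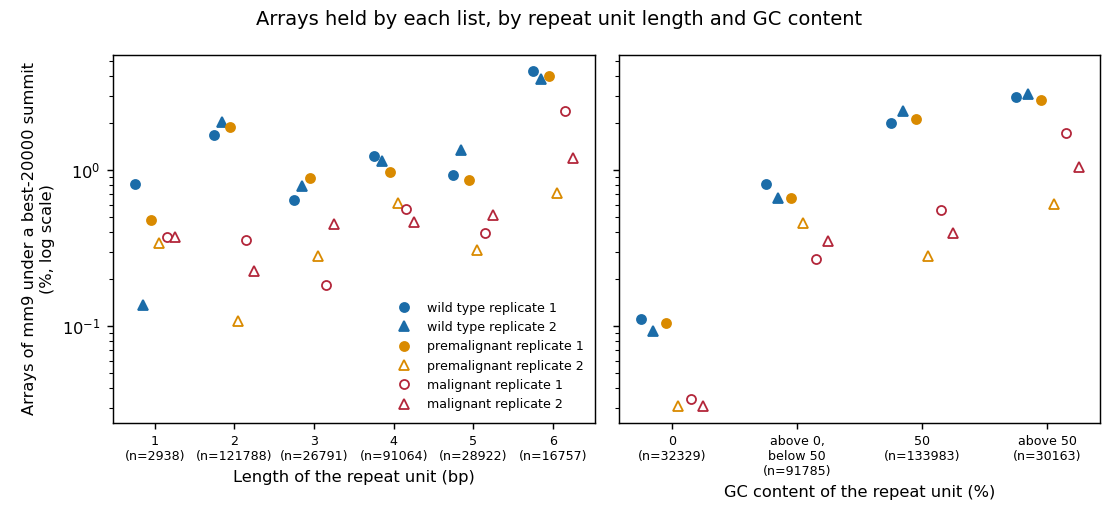
Percent of the mm9 arrays of each class that a best-20000 summit held, on a log scale, by unit length (left) and by GC content of the unit (right), with the number of arrays in mm9 below each class. Filled symbols are the narrow and open symbols the wide lists, circles replicate 1 and triangles replicate 2. Units of 6 bp have the highest mean, and AT-only units lie near 0.1% in the narrow and near 0.03% in the wide lists.

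Units made of purines on a single strand were not favoured as a class. Homopurine arrays were held at 0.956%, 1.12%, 0.769%, 0.179%, 0.226% and 0.417%, and arrays with purines and pyrimidines mixed at 1.8%, 1.95%, 1.9%, 0.43%, 0.687% and 0.407%. In malignant replicate 2 the classes were nearly level, and in the other 5 lists the homopurine arrays were held less often. This counts the homopurine repeats other than AG, which the rule left out.

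Members often carried an AG array as well. The window of 28.6%, 29.9%, 25%, 13.5%, 23.4% and 23.9% of members also held an AG repeat of 40 bp or more, against 3.7% of the random positions on other microsatellites. AG repeats lay under 54.9%, 58.6%, 48%, 4.98%, 17.6% and 10.1% of all best 20000 peaks, so the libraries with many AG peaks were those with many members. Arrays with an AG array within 50 bp were held at 10.5%, 12%, 9.46%, 0.909%, 2.84% and 2.14%, and those without at 1.16%, 1.26%, 1.21%, 0.321%, 0.439% and 0.344%.

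For some units most of the arrays held had an AG array beside them. AGGG arrays with AG within 50 bp were held at 13.3%, 17.1%, 13.3%, 0.671%, 4.19% and 1.85%, and the 6181 without at 0.291%, 0.453%, 0.324%, 0%, 0.113% and 0.0647%, below the background of each list. The Sult1c1 array printed above is of the first kind, with AG arrays of 59 and 47 bp within 200 bp of it. ACAG behaved otherwise: without an AG array within 50 bp 1085 arrays were still held at 24.1%, 24.6%, 21.6%, 11.9%, 15% and 9.49%. Nearly the same held for AGGC, where 487 of 489 arrays had no such neighbour.

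AGAT, a common AT-rich tetramer, was held far more often where an ACAG array adjoined it. The 158 AGAT arrays with ACAG within 50 bp, as in the example from chromosome 8, were held at 35.4%, 32.3%, 27.8%, 43.7%, 31% and 19%. The 21098 others were held at 0.318%, 0.204%, 0.133%, 0.962%, 0.232% and 0.0995%. AGAT beside ACCT (148 arrays) differed between libraries, with 18, 0, 0, 62, 23 and 7 held. Premalignant replicate 2 stood apart for AGAT, with 272 arrays against 51 to 123 in the other lists, 27.5% of all the arrays it held. Of the 20809 AGAT arrays without ACAG, ACCT or AG within 50 bp it held 138, most of its AGAT arrays by a small margin, against 7 to 36 in the other lists, where they were the smaller part.

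ACAG itself was held without such neighbours too, at 22.6%, 23.6%, 20.7%, 7.58%, 12.9% and 8.32% of the 950 arrays that had neither AGAT nor AG within 50 bp.

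Array length separated the units. For AC, arrays of 40 to 44 bp were held at 0.882%, 1.24%, 0.927%, 0.103%, 0.271% and 0.197% (n = 42737). At 60 to 69 bp (n = 2641) the values were 19.3%, 16.5%, 19.4%, 0.227%, 1.44% and 0.379%, and at 70 to 79 bp (n = 194) they were 72.7%, 77.3%, 56.7%, 0%, 5.15% and 3.09%. Of the 60 AC arrays of 100 bp or more, 59, 60, 59, 3, 52 and 17 were held. From 80 to 99 bp (n = 61) the narrow lists held 95.1%, 96.7% and 90.2%, and thus nearly every AC array from 80 bp upwards was under one of their best 20000 summits, whereas the wide lists differed among themselves: malignant replicate 1 held 86.7% of the longest class (95% exact interval 75.4 to 94.1), malignant replicate 2 28.3% (17.5 to 41.4) and premalignant replicate 2 5% (1.04 to 13.9). The rise was as steep for AC arrays without AG within 50 bp, which at 70 to 79 bp were held at 72.4%, 77.8%, 56.8%, 0%, 5.41% and 3.24%.

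**Figure D3:**
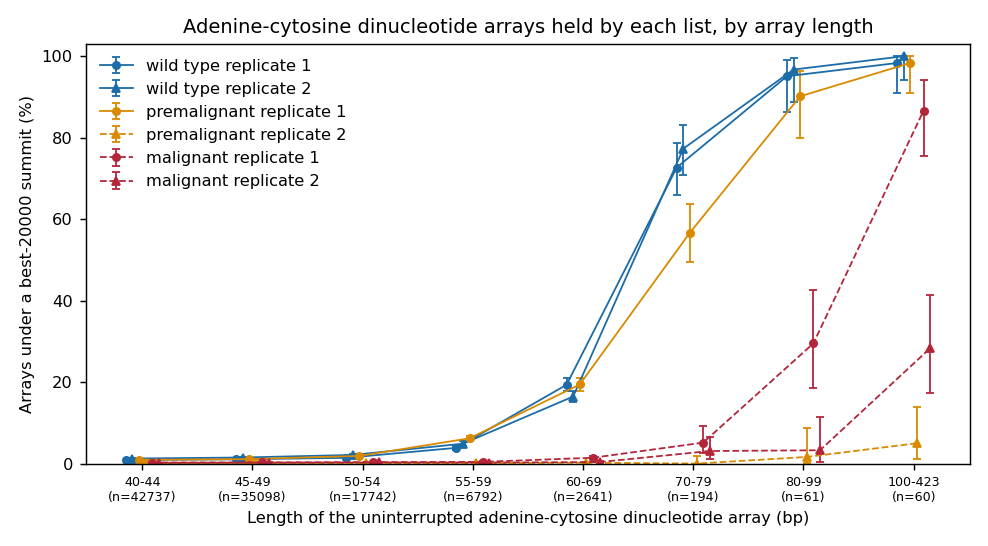
Percent of uninterrupted AC arrays of mm9 under a best-20000 summit, by array length in bp, with the number of arrays per class below the axis. Solid lines are the narrow lists, dashed lines the wide lists and bars 95% exact binomial intervals (counting error only). In the narrow lists the share passes from about 1% at 40 to 44 bp to 98.3% to 100% at 100 bp or more.

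ACAG rose with length in all 6 lists. From 40 to 44 bp (n = 639) it was held at 10.6%, 12.5%, 8.45%, 2.35%, 2.66% and 2.19%, and from 50 to 59 bp (n = 143) at 80.4%, 79%, 80.4%, 51.7%, 67.8% and 42.7%. Each of the 14 ACAG arrays of 60 bp or more was held by each of the 6 lists. AGGC behaved alike, with 34, 40, 39, 23, 25 and 43 of 396 arrays held below 60 bp, and 5, 5, 5, 4, 5 and 5 of the 5 arrays of 100 bp or more.

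AGAT rose from 0.479%, 0.39%, 0.284%, 0.875%, 0.337% and 0.172% below 60 bp to 0.944%, 0.645%, 0.553%, 2.83%, 0.898% and 0.507% from 60 to 99 bp. No rise common to all 6 lists was seen for the units described next. AAAG, the most frequent homopurine tetramer among the members, was held at 1.1%, 0.757%, 0.638%, 0.126%, 0.161% and 0.344% from 40 to 59 bp and at 1.02%, 0.796%, 0.585%, 0.106%, 0.13% and 0.357% from 60 to 99 bp. Of 11 AGGG and 26 AAGG arrays of 100 bp or more no list held any, but so few arrays cannot show whether the share rose. AGGG was held at 1.58%, 2.03%, 1.58%, 0.0753%, 0.527% and 0.264% from 40 to 59 bp. From 60 to 99 bp it was held at 0.893%, 1.51%, 1.03%, 0%, 0.275% and 0.0687%, lower in each list. Between these classes AAGG fell from 0.572% to 0.468% in wild type replicate 1 and rose from 0.549% to 0.613% in wild type replicate 2. ACAGAG was held at 13.7%, 20.8%, 13.4%, 1.92%, 4.51% and 3.26% below 60 bp and at 15.1%, 23%, 12.9%, 0%, 2.16% and 2.88% above.

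AGAGGC, a GC-rich hexamer with 1561 arrays in mm9, was held at 19.9%, 5.32%, 20.1%, 2.95%, 16.5% and 2.75%. Here the replicate 1 library of each stage held 257 to 314 arrays and the replicate 2 library 43 to 83, across narrow and wide lists alike. The gap widened with length. Of the 263 arrays below 60 bp 6.08%, 5.7%, 4.56%, 3.42%, 5.7% and 4.56% were held, of the 338 from 60 to 99 bp 10.9%, 6.8%, 11.8%, 5.03%, 12.1% and 2.96%, and of the 960 of 100 bp or more 26.8%, 4.69%, 27.3%, 2.08%, 20.9% and 2.19%. The rise with length was thus seen in the replicate 1 libraries. Of 129 units with at least 20 arrays in mm9, 3 (2.33%) had all 3 replicate 1 libraries above all 3 replicate 2 libraries, this hexamer and 2 AT-rich pentamers of under 200 arrays, and 0 had the opposite order. Labels do not say what the replicate numbers share, and the cause was not tested. By comparison the 3 narrow lists lay above the 3 wide lists for 31 of the 129 units (24%) and below for 1 (0.775%), and both wild type lists above both malignant lists for 38 (29.5%) and below for 2 (1.55%).

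Rare units gave some of the highest shares. All 5 mononucleotide arrays of C were held by 3 of the lists, with 5, 4, 5, 2, 5 and 2 in turn. AATGG, with 30 arrays in mm9, had 27, 10, 26, 9, 10 and 6 held. With so few arrays these shares have wide counting intervals.

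Summits lay nearer to the arrays than random positions did. A summit was inside the array itself in 56.6%, 51%, 63.1%, 64.4%, 60% and 52.8% of members, against 33.1% of the random positions on such repeats. Within 10 bp of the array's centre lay 25.5%, 21.9%, 31.4%, 25.6%, 21.8% and 23.4% of summits and 10.3% of random positions. All 6 libraries were above the random level on both measures, the wide ones as much as the narrow ones. Of all members 12%, 13.2%, 10.7%, 36.3%, 16% and 21.6% held at least 2 arrays of these units in the window, against 7.41% at random, and premalignant replicate 2 was the highest. The measures of distance were not separated by the number of arrays in the window.

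**Figure D4:**
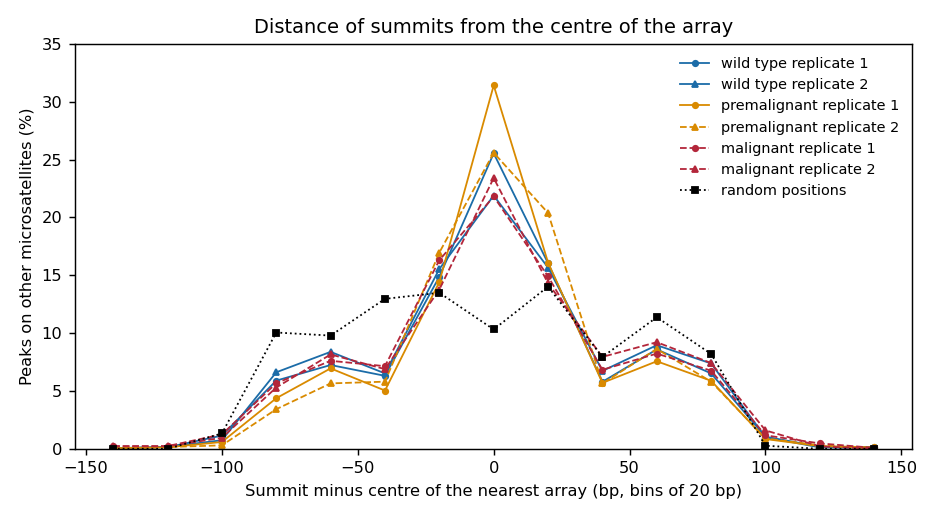
Distance in bp of member summits from the centre of the nearest other-microsatellite array, in bins of 20 bp, as percent of the members of each library and of the 378 random positions that held such an array. The central bin holds 21.8% to 31.4% of summits and 10.3% of random positions.

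Along the ranked lists the members were not spread evenly. In the narrow lists they rose from 14%, 13.6% and 15.6% among the best 5000 peaks to 23.3%, 27.1% and 22.2% at ranks 15001 to 20000, and of the next 20000 peaks 27.3%, 30.9% and 23% lay on such repeats. In the wide lists they were densest at the top, with 5.9%, 8.78% and 8.1% of the best 5000 in premalignant replicate 2 and malignant replicates 1 and 2, and fell to 2.36%, 5.16% and 3.16% at ranks 15001 to 20000. The median member rank was correspondingly 11414.5, 12153, 11144.5, 6614.5, 8134.5 and 6442. A cut at another rank therefore changes the gap between the kinds of list.

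**Figure D5:**
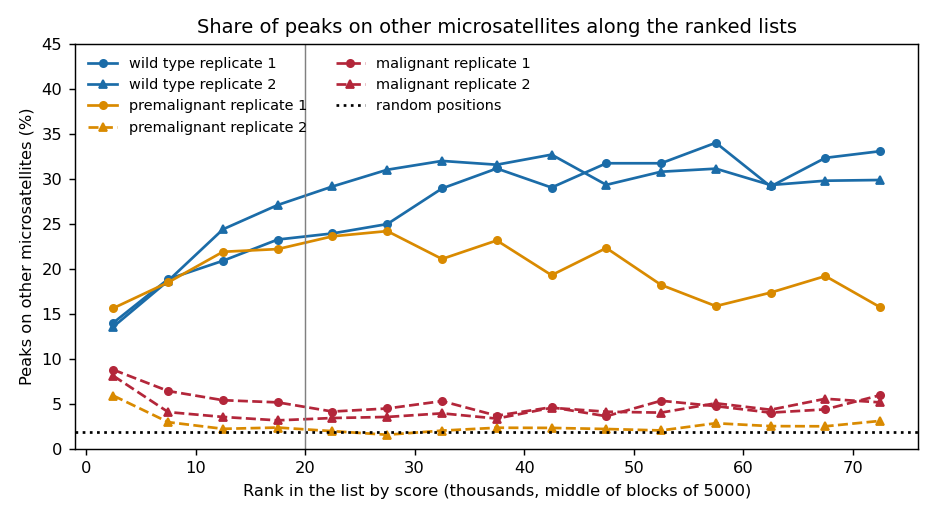
Percent of peaks on other microsatellites in blocks of 5000 ranks by score, for each library. The grey line marks rank 20000 and the dotted line random positions (1.89%). Narrow lists (solid) climb and wide lists (dashed) fall over the best 20000.

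At the threshold the last member of wild type replicate 1 had rank 19998 and a score of 10.7, and the next peak with such a repeat, at rank 20002, had the same rounded score. In premalignant replicate 1 the last member (rank 20000) and the next such peak (rank 20004) both scored 5.86, so that ties set which was taken. The length limit passed through a crowded range: in wild type replicate 2, 270 of the best 20000 peaks had a longest repeat of 39 bp and 138 one of 40 bp.

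Sequence around the arrays was less often unique than around arrays in no list. The flanks, 100 bp on each side, were searched as 24-mers over mm9, and a flank pair counted as single copy when the median 24-mer occurred once. This was so for 57.9%, 56.3%, 62.7%, 30.2%, 44.8% and 31.4% of the arrays held, against 74.6% of 5000 arrays drawn at random from those in no list. For AC the shares were 72.7%, 68.3%, 75.1%, 27.9%, 52.1% and 33%, against 94.1% of 1815. Without the arrays that had AG within 100 bp the AC shares were 76.1%, 70.7%, 77.3%, 24.4%, 55.9% and 29.2%, so the deficit of single-copy flanks was also present where no AG array lay there. AC arrays of the wide lists thus lay most often in repeated sequence. Per the study's methods mapping used the default options, under which bowtie2 places a read that fits several loci equally well at only 1 of them, picked at random. The part of such reads in these results was not tested.

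GC content of the flanks was a little higher around AC arrays that were held, with medians of 45%, 45.5%, 45%, 46.5%, 46% and 46.5% against 41.5% around 5000 AC arrays in no list. For ACAG the medians were 44%, 44.5%, 44%, 39%, 43.5% and 43.2%, against 43% around the 738 arrays in no list.

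In the GENCODE M1 annotation 61.5% to 66.1% of members were intergenic and 33.5% to 38% intronic, as were 64% and 34.9% of random positions on such repeats. Coding exons held at most 1 member in any list. A gene start lay within 1 kb of 3.66%, 3.41%, 4.04%, 5.51%, 3.57% and 5.19% of members, against 1.59% of those random positions. The random share rests on only 6 of 378 positions and has a wide counting interval. The other best 20000 peaks lay there more often than members in 5 lists (5.41% to 8.68%) and less often in premalignant replicate 2 (2.71%).

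By chromosome, 20, 14, 14, 8, 6 and 0 of the 306 arrays of chromosome Y were held, which is 6.54%, 4.58%, 4.58%, 2.61%, 1.96% and 0%. On chromosome X the shares were 1.09%, 1.22%, 1.18%, 0.24%, 0.4% and 0.36% of 14984 arrays. Per the study's methods wild type and premalignant cells came from female animals, and the source of the peaks listed on Y in those 4 libraries was not tested.

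A total of 254 arrays were held by all 6 lists, 2.79% of the 9116 held by any. Of the 71105 merged windows of all best 20000 peaks 1484 were in all 6 lists (2.09%). Of the 7810 merged windows of members 241 were (3.09%). ACAG was 4.23% of the arrays held by any list and 31.5% of those held by all 6 (80 of 254). AC went the other way, with 48.2% and 14.6% (37 arrays). AGAT gave 31, AGGC 21 and AGAGGC 17 of the 254. The median length was 54 bp for the 254 arrays, 55 bp for all arrays held and 49 bp for all arrays of mm9.

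The best ranked of these was the ACAG array in an intron of Gria1, which encodes a subunit of AMPA glutamate receptors, at chr11:56989603-56989688. Its best summits had ranks 30, 48, 44, 74, 32 and 108. The AC array in an intron of Gnb5, a G protein beta subunit, at chr9:75161011-75161057, had ranks 78, 50, 100, 133, 89 and 136, and its summits lay beyond the AC array, over the AG arrays next to it. On chromosome 8 the adjoining AGAT and ACAG arrays, at chr8:77501611-77501680 and chr8:77501678-77501747, shared their summits, which all lay in the ACAG part, with ranks 70, 156, 102, 96, 57 and 167. An intergenic ACAG array of 71 bp at chr2:51482218-51482288, 778 bp from the start of the taste receptor gene Tas2r134, had ranks 137, 280, 231, 121, 91 and 215. All of these were among the best 300 peaks of each list, whether narrow or wide. The best AGAGGC array, at chr7:147407145-147407213 in an intron of Cd163l1, had ranks 362, 1408, 414, 255, 188 and 504, and the best AAAG array, at chr6:140746481-140746537, ranks 3161, 3431, 1798, 7178, 1374 and 1190. The AGAGGC summits lay inside the array only in premalignant replicate 2 and malignant replicate 1. All the AAAG summits lay beyond the array, which has AAGG, ACAG and AAAG arrays within 200 bp.

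Arrays held by both lists of a stage and by none of the other 4 numbered 681 for wild type (7.47% of 9116, against 4.07% of all merged windows), 7 for premalignant (0.0768%, against 0.0548%) and 10 for malignant cells (0.11%, against 0.691%). The wild type count is of narrow lists alone, the malignant count of wide lists alone and the premalignant count of a mixed pair. All 3 narrow lists without any wide list shared 816 arrays (8.95%, against 5.92%), and all 3 wide lists without any narrow list shared 6 (0.0658%, against 0.802%). The 4 lists with Eµ-Myc and neither wild type list shared 4 arrays (0.0439%, against 0.0323%). Arrays and merged windows are different units, since 1 window can hold several arrays. As merged windows of members (7810), the shares were 8.09% for wild type, 0.064% for premalignant and 0.064% for malignant lists alone. They were 10.4% for the narrow lists, 0.0128% (1 window) for the wide lists and 0.0256% for the 4 lists with Eµ-Myc. The last was below the 0.0323% of all windows.

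Of the wild type arrays, AC at chr8:41502035-41502074, whose nearest start is that of Zdhhc2, had ranks 2113 and 1193, and AAAG at chr12:117434377-117434439 had 3094 and 1791. The premalignant ones were AGGG in Sult1c1, a sulfotransferase gene, at chr17:54117532-54117590 (ranks 3035 and 3178) and ACTCT in an intron of Mrps27, a mitochondrial ribosomal protein gene, at chr13:100161155-100161212 (ranks 3829 and 17362). In malignant cells they were AGGC in Eif2ak4, which encodes a kinase of translation factor eIF2, at chr2:118252581-118252621 (ranks 603 and 275) and AC at chr1:106566630-106566670 (ranks 1562 and 889). Among these stage examples only the ACTCT array had its summits inside it. For the others both summits lay outside the array, and all but the chromosome 1 array have another array within 200 bp. The ranks are those of the summits. Absence from the other 4 lists means that none of their best 20000 summits had 40 bp of the array in its window. A best 20000 summit close by that reached less of the array was not counted. Absence does not refer to their full lists.

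Pairs of libraries shared a mean of 40.7% of their arrays within a stage (3 pairs, 27.7% to 56.6%) and 39.5% between stages (12 pairs, 26.3% to 51.8%), a difference of 1.17 points. Among the narrow lists the shared part was 50.5% to 56.6%, among the wide lists 36% to 37.7%, and across them 26.3% to 49.2%. The difference between stages was thus smaller than the spread between pairs. Within each kind of list, however, the pair from a single stage shared the most: the wild type pair 56.6% against 51.8% and 50.5% for the other narrow pairs, and the malignant pair 37.7% against 36% and 36.8% for the other wide pairs. The premalignant pair, a narrow and a wide list, shared 27.7%, and without premalignant replicate 1 the difference was 10.7 points. Of the 1767 arrays that all 3 narrow lists held, 78.2%, 90.3% and 87% had a summit within reach somewhere in the full lists of premalignant replicate 2 and malignant replicates 1 and 2, against 16.8%, 6.96% and 20.6% of all arrays. Most of these 1767 arrays were thus also called in the wide lists, at ranks beyond 20000 for part of them.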

How the data were processed

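UBTF ChIP-seq peak lists of 6 libraries (2 per stage) were analysed. Per the study's methods, the authors sequenced 50-bp paired reads, mapped them with bowtie2 to mm9 with 1 rDNA copy, removed duplicates with Picard and called peaks per library with SPP. The deposited signal column is the peak caller's score and was used for ranks only. The deposited q-value column (the FDR) was used for 1 alternative. The p-value column holds a placeholder. Libraries were not pooled, and depth is unknown.

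Lists were ranked by score. Uninterrupted tandem repeats were found in the NCBIM37 sequence, and 400 of 400 planted repeats were recovered on simulated sequence. Random positions were drawn over sequenced mm9. Members, repeat classes and lists were chosen with earlier results of these data known. Named arrays were the 6 of lowest mean rank held in all 6 lists, 2 per stage held in both of its lists and no other, and the best for each of the 5 most frequent units, leaving out chromosome 18. 1 of the 6 is not reported here. Units were named from 20 member arrays upwards, and rarer ones that are named were chosen after their values were seen. Stages were compared by two-sided exact permutation of libraries with Benjamini-Hochberg adjustment, and intervals are Clopper-Pearson. P-values measure the spread between these libraries only. Alternatives changed the number of peaks, the repeat length, the window, the FDR and the libraries. Python 3.11.15, numpy 2.4.6, pandas 2.3.3, scipy 1.17.1, numba 0.67.0 and matplotlib 3.10.9 were used.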

Additional observations from a re-analysis of the deposited data

How the results depend on the processing

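The 10 summary results (the 3 stage differences, the share of members, the shares of AC, homopurine and GC-rich units, the share of all arrays held, sharing within against between stages, and arrays in all 6 lists) were recomputed with the best 5000, 10000 or 40000 peaks, repeats of at least 30 or 60 bp, windows that reach 50 or 200 bp from the summit, the best summit of a region alone, an FDR of at most 0.001, each library left out, and, chosen after seeing the data, without windows that also held an AG or telomere repeat. Values for single units, length classes, neighbours, offsets, flanks and places were not. The FDR limit removed none of the best 20000 peaks, so its 10 values were the same by construction. Of the other 153 values, 138 kept their direction and, where a limit of size was set, stayed within it. The limit was the spread over libraries for shares, over different-stage pairs for sharing, and 1.5 times for counts. Stage differences had no such limit and were judged by direction alone. Another 2 values within the spread turned in sign, both for sharing without a wild type library (-5.81 and -7.15 against 1.17 points). Some of the 153 could not move. These included the differences blocked by replicate number, and each stage difference with a library of the other stage left out. No stage difference could pass a threshold under any setting. Without premalignant replicate 1, malignant minus premalignant turned to 2.22 points.

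The share of all arrays held, 0.994% as the mean of 6 libraries, was 0.237% with the best 5000 and 2.15% with the best 40000 peaks, as more peaks can hold more arrays. Arrays in all 6 lists numbered 110 with the best 5000 peaks, 396 with repeats of 30 bp and 50 with 60 bp, 120 with a reach of 50 bp and 404 with 200 bp, against 254. The share of arrays with a unit above 50% GC, 23.1%, was 34.4% with repeats of 60 bp. The share with a homopurine unit, 21.8%, was 10.9% with a reach of 50 bp and 14.5% without windows that held AG. The mean share of members, 12.4%, was 4.4% with repeats of 60 bp and 17.8% with 30 bp. Malignant minus wild type, -14.5 points, was -4.8 with repeats of 60 bp and -21.2 with 30 bp. With the best 5000 peaks it was -5.36 points and with the best 40000 it was -19.8, so its size depended on the settings. Causes of these shifts were not tested.

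Leaving out each library in turn moved the mean share of members between 10.7% and 14.2%, arrays in all lists between 258 and 404 (404 without premalignant replicate 2), and same-stage minus different-stage sharing between -7.15 and 10.7 points (10.7 without premalignant replicate 1). Malignant minus premalignant lay between -14.0 (without premalignant replicate 2) and 2.22 points. Malignant minus wild type stayed between -15.4 and -13.7 points, and premalignant minus wild type between -16.7 (without premalignant replicate 1) and -0.54 points (without premalignant replicate 2).

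Blocking by replicate number left the differences of means as they were (-14.5, -8.64 and -5.88 points), with exact sign-flip p of 0.5, 1 and 1. The smallest p it allows is 0.5. Correlations of the deviations of same-numbered libraries were 0.0161, 0.0737 and 0.192, so the numbers do not show that samples are paired.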
